A study of Arabidopsis thaliana with 6 samples.

Results

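Expansins, xyloglucan endotransglucosylase/hydrolases (XTH) and trichome birefringence-like proteins (TBL) are families of plant proteins with members that loosen, cut or acetylate the primary and secondary cell wall. The genes were taken by symbol, as every gene that the array's probe annotation named alone on a probe set with a symbol starting EXPA, EXPB, EXLA, EXLB, XTH or TBL and a digit. This gave 49 genes of the 13350 that were named in this way, with 18 expansins, 9 XTH genes and 22 TBL genes, and none of the 49 had more than 1 such probe set. The current RefSeq annotation (TAIR10.1) holds 34 expansin, 30 XTH and 41 TBL genes, so the rest of each family was not analysed here. The arrays compared the cax1cax3 double mutant, which lacks 2 cation/H+ exchangers of the vacuolar membrane, with its Columbia-0 wild type, in 3 arrays each of whole plants. Both genotypes are of the Columbia-0 ecotype and spent 10 days on plates that held 0.5% sucrose before 3 weeks of soil culture, with 16 h of light a day and 22 °C. The labels give an age of 40 days, which is longer than these plate and soil periods together. Necrotic lesions were starting to show on the mutants at harvest. The labels leave out whether several plants made up a sample. The probe annotation used here paired no probe set with CAX1 or CAX3, so the mutated genes gave no check of the genotype labels.

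Plant cells grow by yielding of the wall to turgor pressure. Expansins loosen the contacts between cellulose and the matrix glycans at acidic pH without cutting them. XTH enzymes cut xyloglucan chains and rejoin or hydrolyse them. Several TBL proteins are acetyltransferases of the Golgi that set acetyl groups on xylan, mannan, xyloglucan or pectin. The arrays do not show which action each measured TBL gene has. EXPA and EXPB are the alpha- and beta-expansins, for which wall loosening has been measured, while EXLA and EXLB are expansin-like proteins whose action is less well known. All values below are the deposited log2 expression values, and all differences are cax1cax3 minus wild type, so that 1 unit is a 2-fold change. A gene is called higher or lower where limma's moderated test over all 22746 probe sets gave a Benjamini-Hochberg adjusted p under 0.05. In whole plants, fewer cells or organs that express a gene and less RNA per cell cannot be told apart.

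Median values ran from 7.03 to 7.08 over the 6 arrays. Arrays with the same replicate number deviated together from their genotype means, and both arrays numbered 3 stood apart from the others. Fits with the replicate number as a block are therefore given where they change a call. Array 3 lay at least 1 log2 unit from the mean of arrays 1 and 2 for 3 of the 49 genes in cax1cax3 and for 2 in the wild type, with TBL26 counted in both. Of all probe sets, 3.90% did so in cax1cax3 and 2.43% in the wild type. As a guide to background, 27 probe sets for Bacillus transcripts had a median of 4.04, and the highest of them averaged 5.38. Of the 49 genes, 16 had means at or below that highest bacterial level in both genotypes, namely 6 expansins, 4 XTH genes and 6 TBL genes.

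In cax1cax3 plants, 4 of the 49 wall genes were lower and 0 were higher, where 3.28% of all probe sets were called lower and 2.34% higher. The lower genes were the beta-expansin EXPB3, the alpha-expansin EXPA16 and the TBL genes TBL38 and TBL36, each by a factor of 1.97 to 2.29. No XTH gene was called. Before adjustment, 12 of the 49 genes had a p under 0.05, of which 6 were expansins, 1 was an XTH gene and 5 were TBL genes. This is 24.5% of the 49, where 19.5% of all probe sets had such a p. With the replicate block the calls numbered 8, with EXPB1, XTH32 and TBL26 added to the lower genes and EXPA9 as the 1 higher gene, where 5.15% of all probe sets were called lower with the block, 4.63% higher and 9.78% in either direction. All 4 genes called without the block were called with it.

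**Figure D1:**
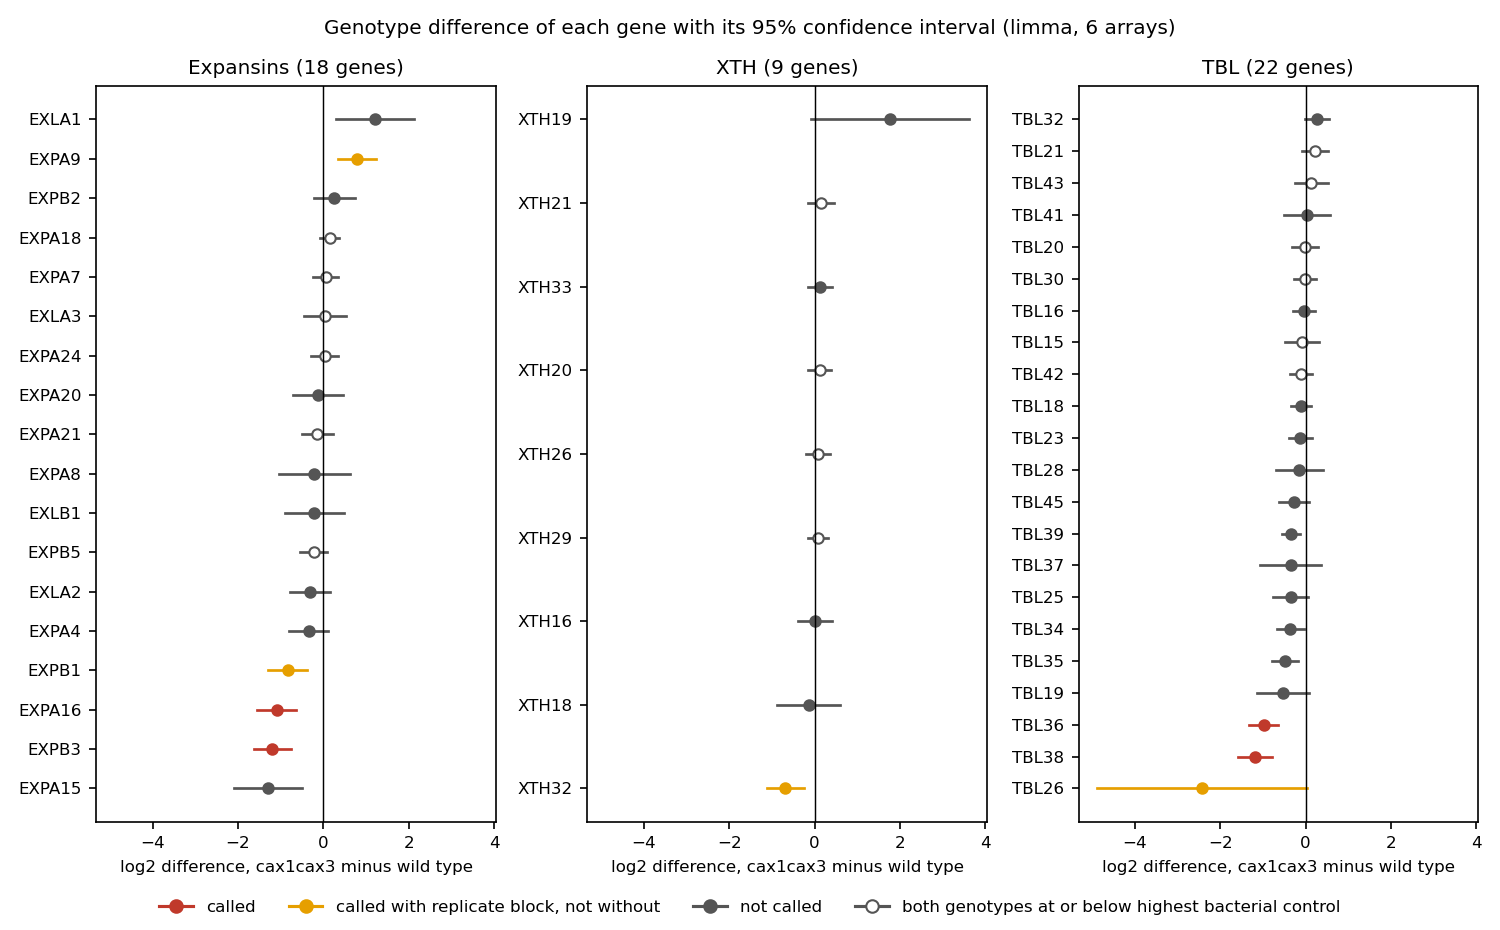
Difference of each of the 49 genes (log2, cax1cax3 minus wild type, x axis) with its 95% confidence interval from limma over 6 arrays, in 1 panel per family, ordered by difference. Red marks the 4 genes called over all probe sets, orange the 4 that were not called there but were with the replicate block, and open symbols the 16 genes whose means lay at or below the highest bacterial control in both genotypes, none of which was called.

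Among the 10 alpha-expansin genes, EXPA16 fell and EXPA9 was the gene with the largest positive difference. EXPA16 (AT3G55500) had values of 6.84, 6.35 and 6.42 in cax1cax3 arrays 1 to 3 and 7.63, 7.36 and 7.90 in wild-type arrays 1 to 3. The highest mutant array lay below the lowest wild-type array. The difference was -1.10 ± 0.19 (SE, n = 3 arrays per genotype), a 2.14-fold lower level (limma adjusted p = 0.0244). EXPA15 had a difference of larger size and a wider spread. Its values were 8.57, 8.19 and 8.42 in cax1cax3 and 8.95, 9.81 and 10.32 in the wild type. The groups did not overlap, and wild-type array 1 lay nearer to the mutant arrays than the other wild-type arrays did. The difference of -1.30 ± 0.33 was not called (limma adjusted p = 0.0764, and 0.0643 with the block), with a 95% interval from -2.09 to -0.51.

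EXPA9 went against this direction. Its values were 7.78, 8.27 and 7.57 in cax1cax3 and 7.19, 7.15 and 6.95 in the wild type, and every mutant array lay above every wild-type array. The difference of 0.78 ± 0.19 had an adjusted p of 0.0649 by limma without the block and of 0.0316 with it. EXPA8 and EXPA4 had differences of -0.21 and -0.35 and overlapped between genotypes. EXPA8 was at 9.92, 9.86 and 9.91 in cax1cax3 and at 10.56, 10.53 and 9.23 in the wild type, so that its mutant arrays were nearly level and wild-type array 3 alone lay below them. Without wild-type array 3 its difference was -0.65 (limma adjusted p = 0.0361), against an adjusted p of 0.812 over all 6 arrays. That fit leaves out the array that lay below the mutant arrays, which favours a small p. EXPA8 was called in 1 of the 6 fits that left out 1 array, and its limma adjusted p was 0.9996 without wild-type array 2. EXPA20 had a difference of -0.13, with a 95% interval from -0.72 to 0.46.

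The other 4 alpha-expansins lay at or below the highest bacterial control in both genotypes and had differences between -0.14 and 0.14. They include EXPA7 and EXPA18, which are known from root hairs. EXPA18 averaged 5.19 ± 0.06 in cax1cax3 and 5.04 ± 0.07 in the wild type (SD, n = 3), and EXPA7 averaged 4.98 ± 0.20 in cax1cax3 and 4.92 ± 0.04 in the wild type. XTH26, another gene known from root hairs, averaged 4.55 ± 0.20 in cax1cax3 and 4.47 ± 0.02 in the wild type. None of these 3 root-hair genes was called. Every mutant array of EXPA18 lay above every wild-type array, and the other two genes overlapped between genotypes. EXPA21 and EXPA24 belong to a cluster of similar alpha-expansin genes on chromosome 5, and 2 further probe sets that match several expansin genes (EXPA22, EXPA23 and EXPA25 among them) were not used.

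Of the 4 beta-expansin genes, EXPB3 fell, and EXPB1 was called lower with the block and in some other fits given below but not in the fit over all probe sets without the block. EXPB3 (AT4G28250) had values of 8.70, 8.60 and 8.80 in cax1cax3 and 9.52, 9.91 and 10.25 in the wild type. The 3 mutant arrays lay close to each other and all below the lowest wild-type array. The difference was -1.19 ± 0.19, a 2.29-fold lower level (limma adjusted p = 0.0182). EXPB1 had values of 6.44, 6.27 and 6.97 in cax1cax3 and 7.30, 7.39 and 7.51 in the wild type. The groups did not overlap, and mutant array 3 lay closest to the wild type. Its difference of -0.84 ± 0.19 had an adjusted p of 0.0551 by limma without the block and of 0.0273 with it. EXPB2 and EXPB5 had differences of 0.25 and -0.23 and were not called. EXPB5 lay at or below the highest bacterial control in both genotypes.

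None of the 4 expansin-like genes was called, and EXLA1 had the largest difference among them. EXLA1 had values of 10.41, 10.47 and 9.10 in cax1cax3 and 9.16, 8.62 and 8.58 in the wild type. Mutant arrays 1 and 2 lay above all wild-type arrays, and mutant array 3 lay within the wild-type range. The difference of 1.21 ± 0.38 was not called (limma adjusted p = 0.139, and 0.0507 with the block). Without mutant array 3 it was 1.65 with an adjusted p of 0.0128. That fit leaves out the mutant array that lay within the wild-type range, which favours a small p. EXLA3, which is the next protein-coding gene to EXLA1 on chromosome 3, had a difference of 0.04, with a 95% interval from -0.46 to 0.54, at a level below the highest bacterial control. EXLA2 and EXLB1 had differences of -0.31 and -0.22 and overlapped between genotypes.

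**Figure D2:**
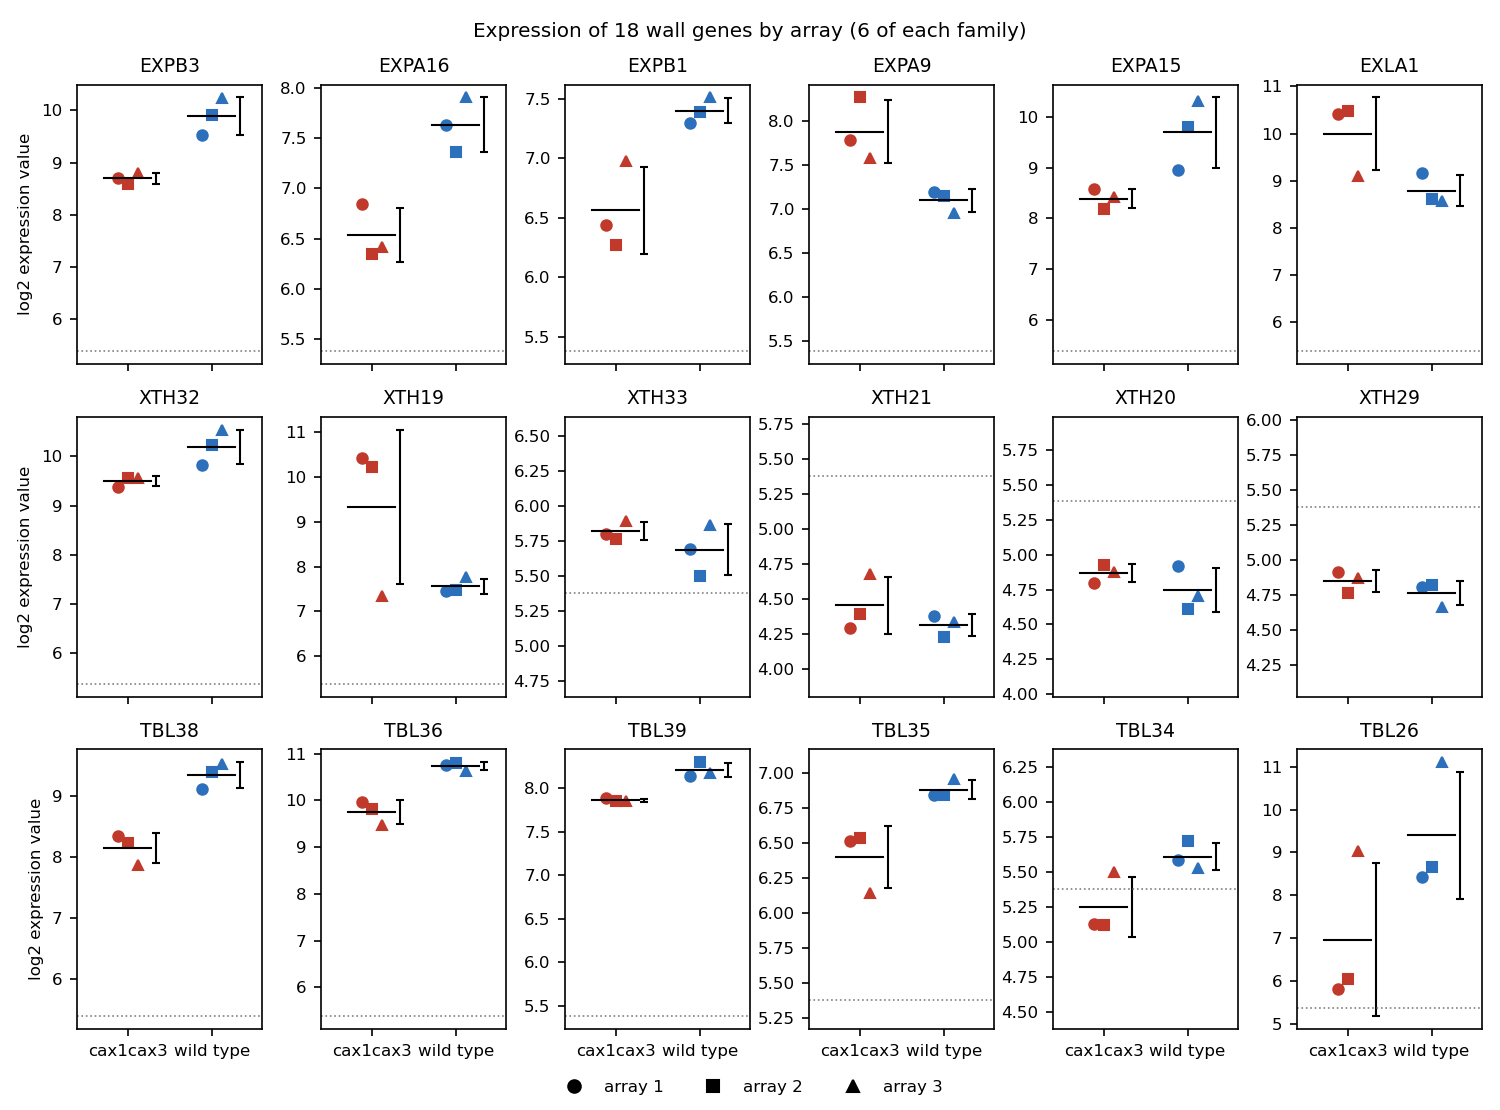
Log2 expression value of 18 genes on each array (y axis, a scale of its own for each gene), with cax1cax3 at the left and wild type at the right of each panel. The rows are 6 expansin, 6 XTH and 6 TBL genes with the lowest adjusted p in their family, horizontal bars are means, vertical bars are ± SD (n = 3), and the dotted line is the highest bacterial control (5.38). Array 3 (triangle) of cax1cax3 lies far from arrays 1 and 2 for XTH19, EXLA1 and TBL26. The called genes EXPB3, EXPA16, TBL36 and TBL38 separate the genotypes on every array. So do EXPB1, EXPA9, EXPA15, XTH32, TBL39, TBL35 and TBL34, which were not called without the block.

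Among the 9 XTH genes 0 were called, and 7 had positive differences. These 7 include XTH20, XTH21, XTH26 and XTH29, which lay at or below the highest bacterial control in both genotypes. XTH32, which belongs to the small group of XTH proteins predicted to hydrolyse xyloglucan, had the lowest adjusted p. Its values were 9.39, 9.57 and 9.56 in cax1cax3 and 9.83, 10.22 and 10.53 in the wild type. The groups did not overlap, and the mutant arrays were close to each other. The difference of -0.69 ± 0.18 had an adjusted p of 0.0852 by limma without the block and of 0.0366 with it.

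XTH19 had the largest positive difference of the 49 genes and the widest spread among XTH genes. It belongs to a set of related XTH genes known from roots, of which XTH18 and XTH20 were also measured. Its values were 10.42, 10.23 and 7.34 in cax1cax3 and 7.45, 7.48 and 7.76 in the wild type. Mutant arrays 1 and 2 were far above the rest, and mutant array 3 was the lowest of the 6 arrays. The mean difference of 1.77 ± 0.78 was not called (limma adjusted p = 0.276, and 0.188 with the block). Differences within replicate numbers 1, 2 and 3 were 2.97, 2.76 and -0.42. Without both arrays numbered 3 the difference was 2.86 ± 0.12 (limma adjusted p = 0.00085, n = 2 arrays per genotype). That fit was chosen after seeing the data. It leaves out the mutant array that went against the rise, which favours a small p. XTH19 was also called without mutant array 3 alone, where the same limit holds. With array weights it was called over all 6 arrays (2.45, limma adjusted p = 0.0202). XTH18, the next protein-coding gene to XTH19 on chromosome 4, did not share this pattern. It had values of 5.33, 6.004 and 5.33 in cax1cax3 and 5.62, 5.19 and 6.27 in the wild type, with overlapping groups and a difference of -0.14 ± 0.31.

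The remaining XTH genes had differences between 0.01 and 0.14. XTH16 averaged 8.84 ± 0.29 in cax1cax3 and 8.83 ± 0.14 in the wild type, with a 95% interval of the difference from -0.39 to 0.40. XTH33, which is predicted to be anchored in the membrane, had values of 5.80, 5.77 and 5.90 in cax1cax3 and 5.70, 5.50 and 5.87 in the wild type. Its groups overlapped, and the 95% interval of its difference ran from -0.15 to 0.42. XTH20, XTH21, XTH26 and XTH29 lay at or below the highest bacterial control in both genotypes, and the groups overlapped in each. XTH21 was at 4.29, 4.39 and 4.68 in cax1cax3 and at 4.38, 4.23 and 4.34 in the wild type. XTH20 was at 4.80, 4.93 and 4.88 in cax1cax3 and at 4.92, 4.61 and 4.70 in the wild type. XTH29 was at 4.92, 4.76 and 4.87 in cax1cax3 and at 4.81, 4.82 and 4.67 in the wild type. The lowest limma adjusted p of these 4 genes was 0.63, for XTH21.

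Of the 22 TBL genes, TBL38 and TBL36 fell and 0 rose, and 18 had negative differences. TBL38 (AT1G29050), which is known from the mucilage-secreting cells of the seed coat, had values of 8.34, 8.22 and 7.87 in cax1cax3 and 9.11, 9.39 and 9.52 in the wild type. All mutant arrays lay below all wild-type arrays. The difference was -1.20 ± 0.17, a 2.29-fold lower level (limma adjusted p = 0.0128). TBL36 (AT3G54260) had values of 9.96, 9.81 and 9.48 in cax1cax3 and 10.76, 10.80 and 10.63 in the wild type, again without overlap. Its difference was -0.98 ± 0.14, a 1.97-fold lower level (limma adjusted p = 0.0151). TBL39 had small spreads, with 7.88, 7.86 and 7.85 in cax1cax3 and 8.14, 8.30 and 8.18 in the wild type. Its groups did not overlap, and its difference of -0.34 ± 0.09 was not called (limma adjusted p = 0.0849).

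TBL23, TBL25 and TBL26 are acetyltransferases of mannan. TBL26 had the largest difference of the 49 genes by size, and its level followed the replicate number in both genotypes. Its values were 5.82, 6.06 and 9.03 in cax1cax3 and 8.43, 8.65 and 11.10 in the wild type. Each mutant array lay below the wild-type array of its own number, with differences of -2.61, -2.60 and -2.07 for numbers 1, 2 and 3, but mutant array 3 lay above wild-type arrays 1 and 2. The difference of -2.43 ± 1.04 had an adjusted p of 0.264 by limma without the block and of 0.00942 with it. Without both arrays numbered 3, in a fit chosen after seeing the data, the difference was -2.60 (limma adjusted p = 0.00167). TBL25 averaged 9.95 ± 0.33 in cax1cax3 and 10.31 ± 0.07 in the wild type, and its arrays did not overlap (difference -0.35, limma adjusted p = 0.325). TBL23 had a difference of -0.12, with a 95% interval from -0.38 to 0.14.

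TBL28, TBL30, TBL32, TBL34 and TBL35 belong to the clade known for acetylating xylan, and none of these 5 genes was called. TBL35 had values of 6.51, 6.54 and 6.14 in cax1cax3 and 6.84, 6.84 and 6.96 in the wild type, without overlap (difference -0.48 ± 0.13, limma adjusted p = 0.0929). TBL34 had values of 5.13, 5.12 and 5.50 in cax1cax3 and 5.59, 5.72 and 5.53 in the wild type. The gap between the nearest arrays of the genotypes was small, and the difference of -0.36 ± 0.13 was not called (limma adjusted p = 0.202). TBL32 pointed the other way, with a difference of 0.27 ± 0.12 and no overlap between the groups (limma adjusted p = 0.277). Its probe set carries the array maker's mark for probes that match more than a single transcript, so its value may include a similar gene. TBL28 and the gene next to it, TBL30, had differences of -0.15 and -0.02.

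The other 11 TBL genes overlapped between genotypes, with differences between -0.54 and 0.23. TBL15, TBL20, TBL21, TBL42 and TBL43 among them lay at or below the highest bacterial control in both genotypes. TBL19 and TBL37 had their highest values on array 3 in both genotypes, and their differences of -0.54 and -0.35 had adjusted p values of 0.317 and 0.608 by limma without the block and of 0.0694 and 0.0828 with it. TBL21, which is next to TBL19 on chromosome 5, had a difference of 0.23. TBL45, TBL18 and TBL16 had differences of -0.27, -0.11 and -0.04, and TBL41 and TBL43 of 0.03 and 0.13.

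**Figure D3:**
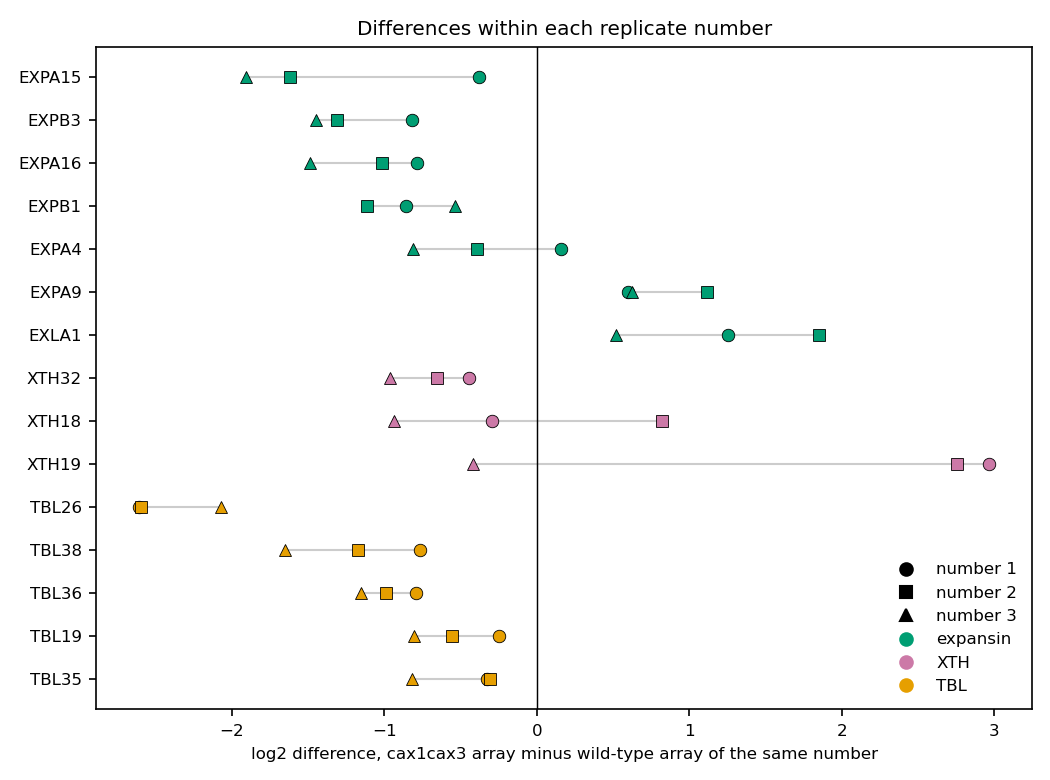
Difference between the cax1cax3 array and the wild-type array of the same replicate number (log2, x axis) for the 15 genes in which at least 1 of the 3 differences reached 0.8 in size. Symbols mark the number and colours the family. EXPA16, EXPB3, TBL36, TBL38 and TBL26 are negative in all 3 numbers, and so are EXPA15, EXPB1, XTH32, TBL35 and TBL19. EXPA9 and EXLA1 are positive in all 3. XTH19 is at 2.97 and 2.76 in numbers 1 and 2 but at -0.42 in number 3.

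Compared with each other, the 3 families had few calls, and only the XTH median was positive, with a sign that changed between replicate numbers. The calls were 2 of 18 expansins, 0 of 9 XTH genes and 2 of 22 TBL genes, or 11.1%, 0% and 9.09%, where 5.62% of all probe sets were called. The median difference was -0.18 in expansins, 0.09 in XTH genes and -0.13 in TBL genes, beside 0.01 over all probe sets. Within replicate numbers 1, 2 and 3 the XTH median was -0.09, 0.27 and -0.002. The expansin median was -0.09, -0.24 and -0.13, and the TBL median -0.14, -0.19 and -0.18. Negative differences made up 61.1% of the expansins, 22.2% of the XTH genes and 81.8% of the TBL genes, beside 47.5% of all probe sets. Among genes above the highest bacterial control in at least 1 genotype, the shares were 75%, 40% and 87.5%. They compare with 50.5% of all probe sets that passed in the same way. These shares describe the measured members of each family, and the difference between families was not tested. TBL differences reached 0.27 at most on the positive side, while expansins spanned -1.30 to 1.21 and XTH genes -0.69 to 1.77.

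Arrays did not overlap between genotypes, with cax1cax3 lower, for 4 expansins, 1 XTH gene and 6 TBL genes, where 13.0% of all probe sets had this pattern. With cax1cax3 higher it held for 2 expansins, 0 XTH genes and 1 TBL gene, where 11.6% of all probe sets did so. Differences of at least 1 log2 unit were found in 5 genes toward lower and in 2 toward higher values in cax1cax3, beside 1.97% and 2.28% of all probe sets. The 5 were EXPA15, EXPA16, EXPB3, TBL26 and TBL38, and the 2 were EXLA1 and XTH19. In 33 genes the mean of at least 1 genotype lay above the highest bacterial control. TBL19 and TBL34 passed by the wild-type mean only, and TBL32 and EXPB2 by the cax1cax3 mean only, which favours larger differences. The median difference of the 33 genes was -0.26 for 12 expansins, 0.01 for 5 XTH genes and -0.35 for 16 TBL genes. It was -0.003 for all 15926 probe sets that passed in the same way. The difference in every replicate number was negative for 6 expansins, 1 XTH gene and 11 TBL genes, and positive for 3 expansins, 1 XTH gene and 2 TBL genes. Of all probe sets, 24.0% were negative and 25.4% positive in every number.

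**Figure D4:**
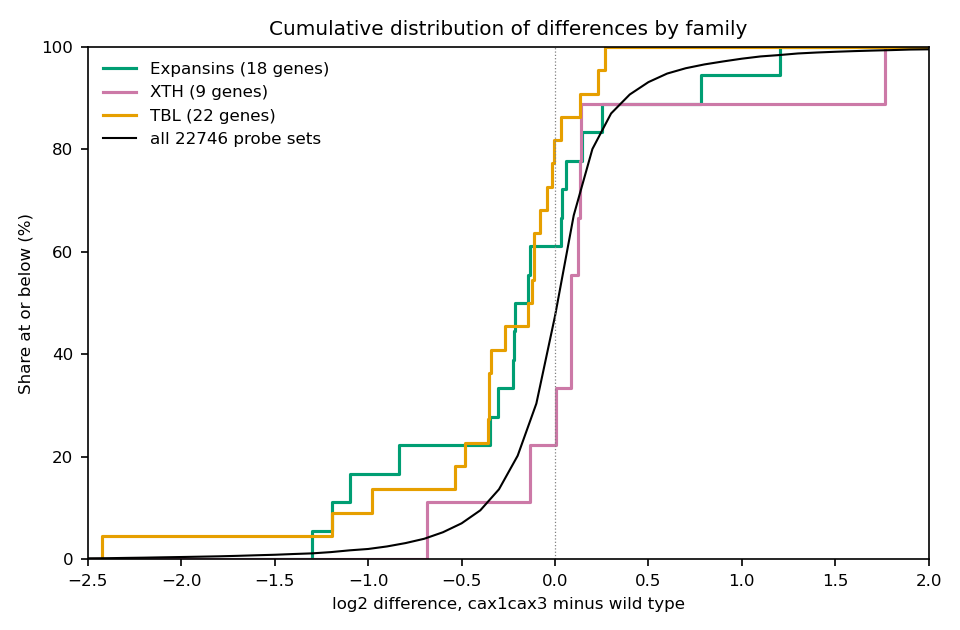
Cumulative share (y axis, percent) of genes at or below a given difference (x axis, log2, cax1cax3 minus wild type) for 18 expansins, 9 XTH genes and 22 TBL genes, with all 22746 probe sets as the black line. No TBL gene lies above 0.27, and 22.2% of XTH genes lie below 0, with XTH19 alone far to the right at 1.77. Of the 9 XTH genes, 4 had means at or below the highest bacterial control in both genotypes.

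Few other genes of wall assembly were named by the annotation. Of the CSLC glucan synthase genes, which make the xyloglucan backbone, 4 were measured and 0 were called without the block. CSLC6 had a difference of -0.52 (limma adjusted p = 0.0598) and CSLC5 of -0.80 (adjusted p = 0.130), and both were called lower with the block (adjusted p = 0.0284 and 0.0156). The list of xylan synthesis and wall acetylation genes held 29 names, of which 3 were measured. It was chosen with earlier results of these data known. All 3 were called lower, where 3.28% of all probe sets were. These were IRX15 (-1.84 ± 0.17), IRX15-L (-1.77 ± 0.30) and GUT2, also known as IRX10 (-1.65 ± 0.20), with limma adjusted p values of 0.00523, 0.0229 and 0.0087. The pectin methylesterase gene PME61, the only measured gene of its list, fell by 1.69 ± 0.19 (limma adjusted p = 0.00774). COB, which acts in cellulose deposition, had a difference of -0.30 (limma adjusted p = 0.191). The list of proton pumps, that of growth-linked response genes and that of touch-regulated genes had 0 measured members, and the list of wall structural proteins matched only 2 splicing factor genes by their symbols.

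Of the 11 organ markers measured, 3 were called, all lower in cax1cax3, where 3.28% of all probe sets were called lower and 2.34% higher. The seed coat marker DELTA-VPE was at 4.94, 4.69 and 5.58 in cax1cax3 and at 9.76, 10.17 and 7.64 in the wild type (limma adjusted p = 0.0182), and it was the only measured gene of its list of 9. Of the 3 measured among 12 anther and pollen markers, ATA27, a tapetum gene, was lower (-2.998, limma adjusted p = 0.00209), and SHT (-0.44) had an adjusted p of 0.0791 without the block and of 0.0412 with it. AMS had a difference of -0.32 (limma adjusted p = 0.359). The summed signal of these 3 ranged from 6.12 to 6.15 in cax1cax3 and from 7.77 to 8.34 in the wild type (log2 of the sum), with SHT and AMS at or below the highest bacterial control in both genotypes. The mutant means of ATA27 (4.77) and DELTA-VPE (5.07) also lay below that control, so background limits the size of both differences. Of 5 leaf photosynthesis genes LHCB4.3 was lower (-1.18, limma adjusted p = 0.0237). LHCB4.2 was not called, with a difference of 0.66 (limma adjusted p = 0.273) and every mutant array above every wild-type array. The other 3, PRK, RCA and LHCB4.1, had differences of -0.42, -0.18 and -0.04 and were not called. The summed signal of the 5 was 15.31 to 15.50 in cax1cax3 and 15.42 to 15.47 in the wild type. The root marker PYK10 had a difference of -0.05, and the trichome marker TRY of -0.47 (limma adjusted p = 0.133). Markers of root hairs and of xylem had 0 measured members. The part of organ composition in the differences of EXPB3, EXPA16, TBL36 and TBL38 was not tested.

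The calls depended on which arrays entered the fit. When each array was left out in turn, TBL38 stayed called in 4 of 6 fits, TBL36 and EXPB3 in 3 and EXPA16 in 2. The highest adjusted p values were 0.0678 for TBL38 and 0.0751 for TBL36, both without wild-type array 2, and 0.0923 for EXPB3 and 0.107 for EXPA16, both without mutant array 2. The differences kept their sign in every one of the 12 other fits for all 4 genes, but this says little about their stability. Their groups did not overlap, so leaving out arrays could not change the sign. The block, trend and filter fits return the same difference as the main fit. Over the 12 fits the differences ranged from -1.31 to -0.97 for TBL38 and from -1.09 to -0.84 for TBL36. For EXPB3 the range was -1.38 to -1.02, and for EXPA16 it was -1.25 to -0.90. Further genes were called in some of these fits. Without wild-type array 1, EXPA15 (-1.67, limma adjusted p = 0.0252) and XTH32 (-0.87, adjusted p = 0.0462) were lower. Without mutant array 3, EXPB1 (-1.04, limma adjusted p = 0.0113) and TBL34 (-0.48, adjusted p = 0.0474) were lower, and EXPA9 (0.93, adjusted p = 0.0340), EXLA1 and XTH19 (2.76, adjusted p = 0.00364) were higher. The fit without both arrays numbered 3 was chosen after seeing the data and compares 2 arrays with 2. In it, 11 of the 49 genes were called, beside 8.78% of all probe sets (4.28% higher and 4.5% lower). These were EXPA9, EXLA1 and XTH19 as higher and EXPB3, EXPA16, EXPB1, EXPA8, TBL38, TBL36, TBL34 and TBL26 as lower genes. With dim probe sets left out, 29 of the 49 genes were tested, and EXPB1 was called lower beside EXPB3, EXPA16, TBL38 and TBL36 while 0 were called higher. In that fit 4.58% of the 15164 probe sets were called lower, 3.38% higher and 7.96% in either direction.

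**Figure D5:**
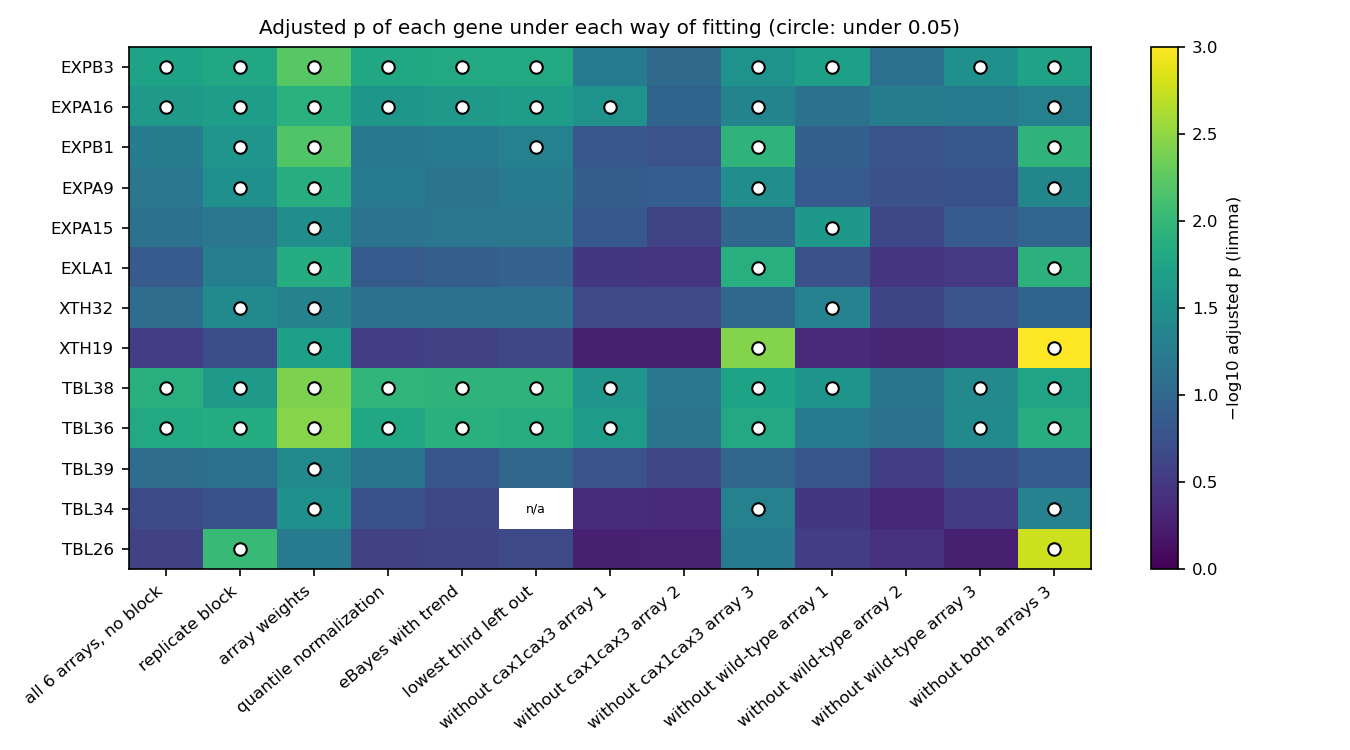
Adjusted p from limma (colour, −log10) of the 13 genes, among the 18 with the lowest adjusted p of their families, that were called in at least 1 fit. Columns are the fit over all 6 arrays and 12 other fits, circles mark an adjusted p under 0.05, and n/a marks a gene left out by the filter. TBL38, TBL36, EXPB3 and EXPA16 are called in the first 6 columns and lose circles when arrays are left out, most often array 2 of either genotype.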

How the data were processed

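RNA from whole Arabidopsis plants was biotin-labelled and put on GeneChip arrays, 1 per sample, starting from 5 µg of total RNA per the labels' protocols. The authors deposited log2 expression values, 1 per probe set and array. Per the submitters' processing notes, GCOS 1.1.2 and RMA were used, with no roles stated; RMA is a method of background correction, normalization and probe summary. These values were used as they stand.

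After removal of 64 control probe sets, 22746 were fitted with limma 3.58.1 in R 4.3.3 (lmFit, eBayes, no covariates) over 6 arrays, with Benjamini-Hochberg adjustment over all of them. limma was tested on simulated data with independent arrays, which lack the shared deviations of same-numbered arrays seen here. Symbols came from the platform annotation, which can be old, and all 49 matched the RefSeq symbol. Since the labels do not name separately grown plants, the p-values cover only variation among these samples, and that variation may be technical. This fit did not pair the arrays. The replicate block and the differences within numbers paired them by the numbers 1 to 3. They are given because deviations from the genotype means correlated at 0.433, 0.292 and 0.471 within numbers. Between arrays 1 and 2 of different genotypes the correlations were 0.116 and 0.120. Between array 3 and arrays 1 or 2 they ran from -0.411 to -0.263. Deviations from a mean sum to 0, so these correlations are not independent of each other. The families, wall and marker lists and roles were chosen with earlier results of these data known. Values by array are given for called genes and for up to 6 genes per family by adjusted p. EXPA8 and XTH18 were added after their values were seen. Wall lists give called members and up to 2 others. The number of arrays limits the precision.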

Additional observations from a re-analysis of the deposited data

How the results depend on the processing

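Of 12 alternatives (replicate block, quantile normalization, a filter that left out dim probe sets, array weights, eBayes with a trend, each array left out and both arrays numbered 3 left out), the last was chosen after seeing the data. Over all probe sets, 1279 were called, 2224 with the replicate block, 2846 with array weights, 255 to 1744 without 1 array and 1996 without both arrays numbered 3. Called expansins numbered 2, and 4 with the block, 6 with array weights, 0 to 5 without 1 array and 6 without both arrays numbered 3. Called XTH genes numbered 0, and 1 with the block, 2 with array weights and 0 to 1 in the fits that left out arrays. Called TBL genes numbered 2, and 3 with the block, 4 with array weights, 0 to 3 without 1 array and 4 without both arrays numbered 3. The block, which pairs the arrays by number, changed no other call among the 49 genes than EXPB1, EXPA9, XTH32 and TBL26. No gene was called without mutant array 2 or wild-type array 2 in any of the 3 families. The filter left 11 expansins, 5 XTH and 13 TBL genes. With fewer dim genes the medians were -0.31 for expansins, 0.007 for XTH genes and -0.34 for TBL genes. Array weights gave a TBL median of -0.18. In the fits that left out arrays, medians ran from -0.21 to -0.049 for expansins, from 0.05 to 0.14 for XTH genes and from -0.19 to -0.080 for TBL genes. Of the 18 genes with the lowest adjusted p (6 per family), none changed sign under any alternative. These 18 were picked by adjusted p in the same data, which favours a stable sign. Several of the other genes did change sign. For example, XTH16 kept its sign in 7 of 12 alternatives and EXPA24 in 7 of 11. The choice among several probe sets could not be tried, since each gene had 1. The signal level limits what can be said of the 16 genes at or below the highest bacterial control.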
